A study of Mus musculus with 6 samples.

Results

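The genes described here encode the contents and regulators of cytotoxic granules, the secretory lysosomes with which natural killer (NK) cells and cytotoxic T cells kill their targets. They were chosen by name: the granzymes Gzma, Gzmb, Gzmc and Gzmk, the cathepsin gene Ctsw, the perforin gene Prf1, the granule membrane and matrix genes Nkg7 and Srgn, and the serpin genes Serpinb9 and Serpinb6b. Of these 10 names, 8 had a column in the deposited table of 17546 genes, and Gzmc and Gzmk, which had none, were not analysed here. All 8 passed the filter on low counts. The names were chosen with earlier results of this comparison known, in which Gzma and Gzmb were already lower with Yoda1, so the values of the 8 genes are given as a description, without p-values.

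The bulk RNA-seq libraries came from mouse lung type 2 innate lymphoid cells (ILC2s). These lymphocytes lack rearranged antigen receptors and are best known for secreting IL-5 and IL-13. Donor mice were of the BALB/c strain and had received 3 intranasal injections of 1 µg of IL-33 each, and culture medium held IL-2 and IL-7, each at 10 ng/mL. The 2 groups were cells given 10 µM Yoda1 for 24 h (libraries Yoda1 4, 5 and 6) and cells given the vehicle DMSO (libraries DMSO 1, 2 and 3). Yoda1 is a small molecule that opens the mechanosensitive cation channel Piezo1. Both groups thus shared the IL-33 exposure and the cytokine culture, and no untreated or freshly isolated ILC2s were part of the design. The deposited table and the design text name the control PBS where the sample labels say DMSO, and the sample labels were followed. DMSO 2 and DMSO 3 share the number 19 in their label descriptions, and Yoda1 4 and Yoda1 5 share the number 21. What these numbers stand for is not stated. The labels do not state whether each library had its own mice or its own culture, so the spread within a group, and every p-value that rests on it, may be technical.

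Granzymes are serine proteases stored in granules bound to serglycin, the proteoglycan that Srgn encodes. On release, perforin opens the target cell's membrane and lets them in. Granzyme B cuts after aspartate and activates caspases, whereas granzyme A cuts after basic residues. Killer cells carry the cytosolic serpin Serpinb9, which inhibits granzyme B, and are thought to be shielded by it from protease that leaks out of the granules. ILC2s are not classed as cytotoxic lymphocytes, and IL-2 is known to raise granzyme transcripts in T and NK cells.

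Total counts ran from 15355158 to 17322050 in the Yoda1 libraries and from 14214048 to 31627519 in the DMSO libraries. Levels are in CPM, read counts scaled by each library's total and its TMM factor, with mean ± SD over 3 libraries per group. A log2 change is that of Yoda1 over DMSO and comes, with its standard error (SE), from edgeR's quasi-likelihood fit to 13325 tested genes. A gene is called past the threshold when its Benjamini-Hochberg adjusted p over those genes is under 0.05. The labelled cell type was checked against its markers. All 14 ILC2 markers had a column, with Gata3 at 781 to 1032 CPM in Yoda1 and 922 to 991 CPM in DMSO libraries, and Il1rl1, the IL-33 receptor gene, at 556 to 700 CPM in Yoda1 and 562 to 598 CPM in DMSO libraries. Of the 14, Arg1 rose (log2 change 0.93, edgeR quasi-likelihood adjusted p = 0.00868), and Icos (-0.89, adjusted p = 0.00423) and Il2ra fell. DESeq2 and voom also called Il5 and Il17rb higher and Il7r lower, and DESeq2 Rora higher. Thy1, which ILC2s usually carry, was nearly absent, at 0.115 to 1.23 CPM in Yoda1 and 1.49 to 2.87 CPM in DMSO libraries. DMSO 2 and DMSO 3 stood apart by Scgb1a1, but DMSO 1 also held lung epithelial transcripts. Scgb1a1, a secretory protein gene of club cells, was at 0 or 0.0597 CPM in the Yoda1 libraries. In DMSO 1, 2 and 3 it was at 0, 301 and 295 CPM. The epithelial marker Sftpc was at 15.2, 0.568 and 0 CPM in DMSO 1, 2 and 3. It stayed at or below 0.289 CPM in the Yoda1 libraries.

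The start regions of Gzma, Gzmb and Serpinb9 are shown because these were the 3 genes whose groups did not overlap. They are RefSeq sequences on GRCm38.p6, the build also called mm10, from 250 bases before to 50 bases after the RefSeq start, written 5′ to 3′ along the gene. Gzma is at chr13:113100932-113101231 on the minus strand, Gzmb at chr14:56262285-56262584 on the minus strand and Serpinb9 at chr13:33004291-33004590 on the plus strand. Capitals mark matches, on either strand, to a STAT motif (TTCNNNGAA), an AP-1 motif (TGANTCA), a RUNX motif (TGTGGTT), a T-box motif (GGTGTGA) or an IRF motif (GAAA, any 2 bases, GAAA). The RefSeq starts of Gzmb and Serpinb9 differ from the ends of the GENCODE gene models given with the results.
Gzma: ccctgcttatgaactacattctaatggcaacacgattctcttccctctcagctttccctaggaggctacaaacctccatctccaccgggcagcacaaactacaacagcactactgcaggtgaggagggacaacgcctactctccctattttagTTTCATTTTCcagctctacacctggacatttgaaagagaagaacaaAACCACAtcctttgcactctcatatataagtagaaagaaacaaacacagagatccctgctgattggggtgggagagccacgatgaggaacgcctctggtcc
Gzmb: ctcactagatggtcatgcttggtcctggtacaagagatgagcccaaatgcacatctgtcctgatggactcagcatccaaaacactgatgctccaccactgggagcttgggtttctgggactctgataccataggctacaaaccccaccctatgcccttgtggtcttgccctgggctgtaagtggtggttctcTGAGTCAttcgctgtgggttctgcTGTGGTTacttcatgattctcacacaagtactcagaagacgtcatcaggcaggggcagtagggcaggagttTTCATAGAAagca
Serpinb9: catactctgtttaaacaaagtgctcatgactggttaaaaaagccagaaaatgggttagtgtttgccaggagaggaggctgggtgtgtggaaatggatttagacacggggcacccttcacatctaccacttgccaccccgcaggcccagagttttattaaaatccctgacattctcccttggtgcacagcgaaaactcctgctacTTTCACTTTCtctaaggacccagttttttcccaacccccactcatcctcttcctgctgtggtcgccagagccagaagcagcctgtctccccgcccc
The Gzma window held an IRF match from -97 to -88 and a RUNX match from -51 to -45, both on the opposite strand and counted from the start at 1. The Gzmb window held an AP-1 match from -58 to -52, a RUNX match from -34 to -28 and a STAT match from 38 to 46. The Serpinb9 window held 1 IRF match, from -46 to -37, also on the opposite strand. Matches did not overlap each other, and no T-box match lay in these windows. Among all 32851 start regions of this length, 8.30% held the STAT motif, 7.81% the AP-1 motif, 5.27% the RUNX motif, 3.98% the T-box motif and 3.44% the IRF motif. A match is a stretch of letters and does not show that a factor binds there.

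Of the granule proteases, both granzymes were lower in the Yoda1 libraries, and the cathepsin was not past the threshold. Gzmb, on chromosome 14 at 56258838 to 56262260 of GRCm38, was at 30.8, 31.3 and 45.7 CPM in Yoda1 4, 5 and 6, against 118, 148 and 149 CPM in DMSO 1, 2 and 3. Every Yoda1 library lay below every DMSO library, with Yoda1 6 the highest of its group and DMSO 1 the lowest of its own. The means were 36.0 ± 8.45 CPM with Yoda1 and 138 ± 17.3 CPM with DMSO, a log2 change of -1.94 (SE 0.193). Gzmb had 478 to 766 reads in the Yoda1 libraries and 2100 to 4690 in the DMSO libraries.

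Gzma, on chromosome 13 at 113093825 to 113100981, was at 11.2, 11.8 and 14.9 CPM in Yoda1 4, 5 and 6, against 35.5, 58.7 and 50.0 CPM in DMSO 1, 2 and 3. As for Gzmb, the groups did not overlap, Yoda1 6 was the highest Yoda1 library and DMSO 1 the lowest DMSO library. The means were 12.6 ± 1.97 CPM with Yoda1 and 48.1 ± 11.7 CPM with DMSO, a log2 change of -1.93 (SE 0.247). Ctsw encodes cathepsin W, a cysteine protease of NK and cytotoxic T cells that is found largely in the endoplasmic reticulum. It was at 10.7, 12.9 and 7.58 CPM in Yoda1 4, 5 and 6, against 14.96, 15.5 and 9.55 CPM in DMSO 1, 2 and 3. The groups overlapped, and the log2 change was -0.36 (SE 0.316).

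Gzmb and Gzma were the only members past the all-gene threshold, 2 of 8, both lower. In the same fit 0.923% of all tested genes were called lower and 0.570% higher. Since the members were chosen with this comparison known, nothing is read from that count. No member was called higher in edgeR, where 2 had an unadjusted p under 0.05 and a positive change, as 7.39% of all tested genes did. DESeq2 and limma voom each called 1 higher, Serpinb9, in fits where 3.11% and 0.908% of all tested genes were called higher. Both also called Gzma and Gzmb lower, where 3.39% and 1.34% of all tested genes were called lower. DESeq2 gave no adjusted p for 3360 of the tested genes, Prf1 and Nkg7 among them, and these count as not called. In edgeR the Gzmb call was lost without DMSO 3 (log2 change -1.90). The Gzma call was lost without DMSO 2 (-1.76), without DMSO 3 (-1.91) or without Yoda1 5 (-1.88). Few genes of any kind passed in those fits. They called 4 higher and 5 lower without DMSO 3, 9 and 13 without DMSO 2, and 7 and 27 without Yoda1 5. With all libraries 76 were called higher and 123 lower. The label descriptions end in a suffix that is 0 for DMSO 1 and DMSO 2 and another number for the other libraries. Both calls were also lost with that suffix (0 or not) as a term, where the treatment change rests on the Yoda1 libraries against DMSO 3, and with libraries of a shared label number summed, settings in which the fit called 3 and 1 genes of all tested.

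**Figure D1:**
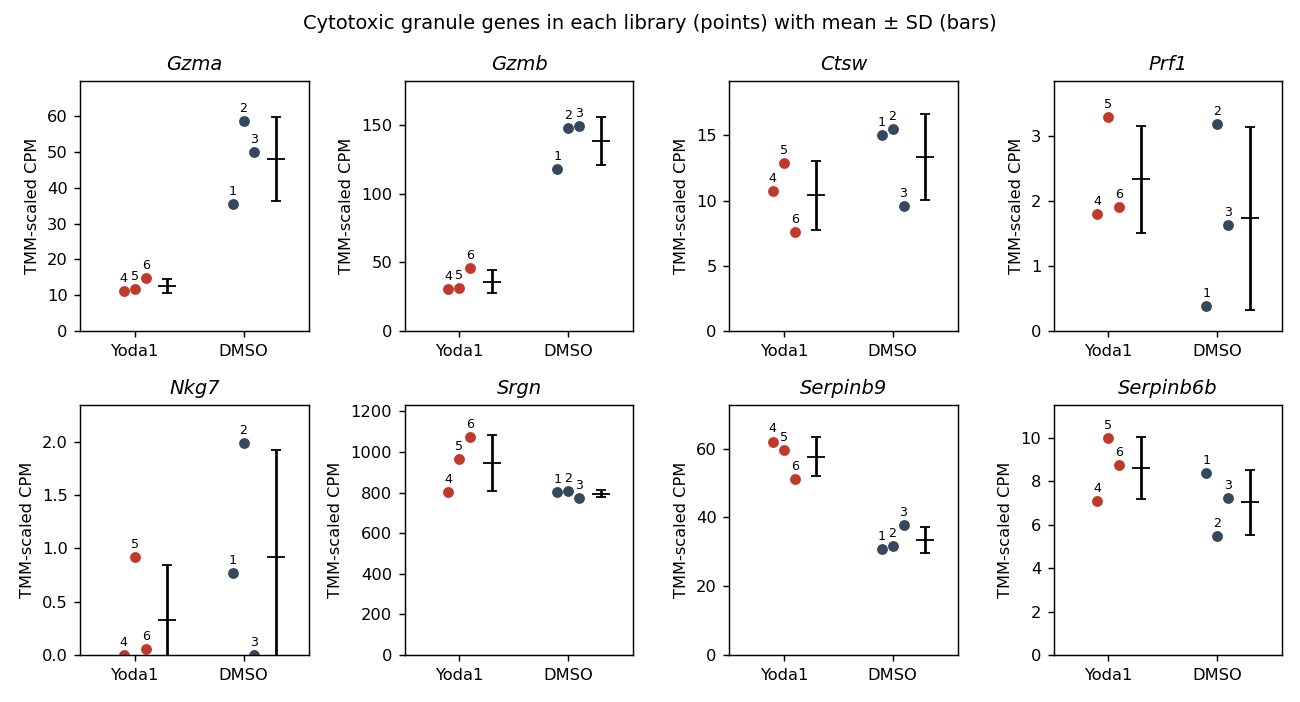
Level of each cytotoxic granule gene (TMM-scaled CPM, linear axes from 0) in each library, numbered as in the labels, with Yoda1 left of DMSO; bars give mean ± SD (n = 3 per group), cut at 0 for Nkg7. The Yoda1 points lie below all DMSO points for Gzma and Gzmb and above them for Serpinb9, and overlap them for the other genes.

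The pore former gene was low, at or below 3.29 CPM, and the granule membrane gene had 0 or 1 reads in Yoda1 4, Yoda1 6 and DMSO 3. Prf1, the perforin gene, was at 1.81, 3.29 and 1.91 CPM in Yoda1 4, 5 and 6 (28, 57 and 32 reads), against 0.386, 3.19 and 1.63 CPM in DMSO 1, 2 and 3 (7, 101 and 23 reads). The DMSO libraries spanned the whole Yoda1 range but for its top, and the log2 change of 0.42 (SE 0.769) was smaller than its error. Without DMSO 1 it was -0.05. Nkg7 encodes a small granule membrane protein needed for efficient degranulation of killer lymphocytes. It had 0, 16 and 1 reads in Yoda1 4, 5 and 6, against 14, 63 and 0 reads in DMSO 1, 2 and 3. With 3 counts of the library total as the limit, which covers counting error only, 0 reads leave room for 0.195 CPM in Yoda1 4 and 0.211 CPM in DMSO 3. Libraries of each group thus held Nkg7 reads in some cases and none in others, and the log2 change of -1.49 (SE 1.58) was smaller than its error.

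Srgn, which encodes the serglycin core protein that binds granzymes in the granule, had the highest level per kb of the members. It was at 801, 966 and 1075 CPM in Yoda1 4, 5 and 6, against 803, 808 and 774 CPM in DMSO 1, 2 and 3. Yoda1 5 and 6 were above all DMSO libraries and Yoda1 4 was level with them. The log2 change was 0.25 (SE 0.108), and Srgn did not pass the threshold. Serglycin is also made by mast cells, platelets and other haematopoietic cells, so the gene is not specific to killer cells.

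Of the inhibitors, Serpinb9 was higher in every Yoda1 library without passing the threshold in edgeR, and Serpinb6b overlapped. Serpinb9, the granzyme B inhibitor on chromosome 13 at 33003250 to 33017957, was at 62.1, 59.6 and 51.3 CPM in Yoda1 4, 5 and 6, against 30.7, 31.8 and 37.9 CPM in DMSO 1, 2 and 3. The groups did not overlap, and the lowest Yoda1 library stood above the highest DMSO library by more than the SD of either group. The means were 57.7 ± 5.65 CPM with Yoda1 and 33.4 ± 3.86 CPM with DMSO, a log2 change of 0.79 (SE 0.170). DESeq2, limma voom and edgeR with a filter of 10 CPM in 3 libraries did call it higher. Serpinb6b, a mouse serpin of the same clade and genomic neighbourhood, was at 7.10, 9.98 and 8.77 CPM in Yoda1 4, 5 and 6, against 8.39, 5.46 and 7.22 CPM in DMSO 1, 2 and 3. Its log2 change was 0.30 (SE 0.321).

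The 3 members without overlap were Gzma and Gzmb, with Yoda1 below, and Serpinb9, with Yoda1 above. Among all tested genes Yoda1 lay wholly below DMSO for 12.0% and wholly above for 10.6%. The members' median log2 change was -0.06, with 4 negative and 4 positive, against a median of 0.01 over all tested genes.

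**Figure D2:**
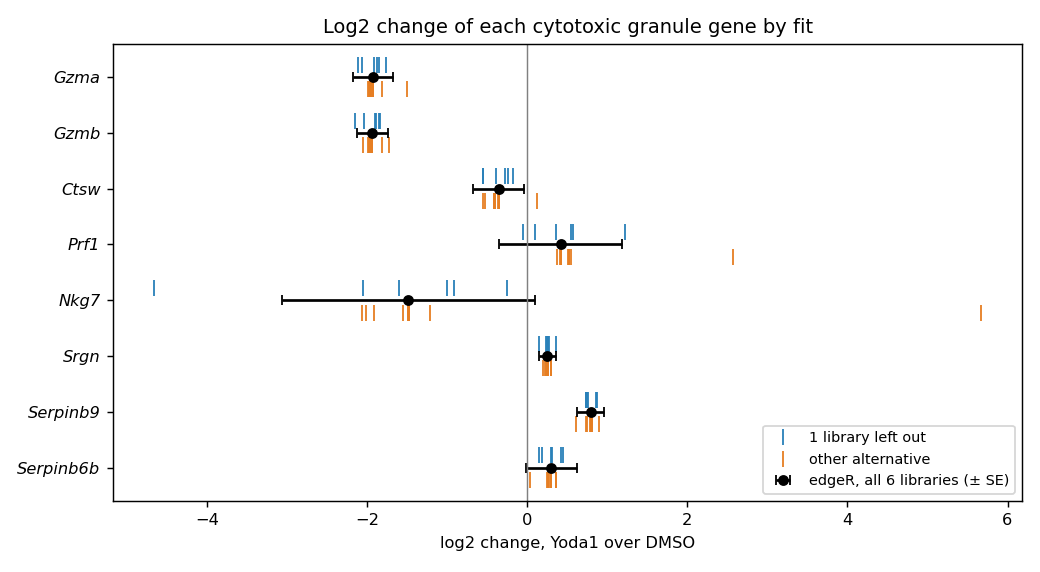
Log2 change of Yoda1 over DMSO for each member (horizontal axis) in the edgeR fit of all 6 libraries (black, ± SE), with 1 library left out in turn (blue) and under the other alternatives (orange). Gzma and Gzmb stayed between -2.15 and -1.5 and Serpinb9 between 0.61 and 0.90, whereas Nkg7 ran from -4.66 to 5.67.

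Levels of different genes were compared as CPM per kb of merged exon length from GENCODE M21. In Yoda1 libraries Srgn averaged 431 ± 62.8 CPM per kb, Gzmb 25.0 ± 5.88, Serpinb9 16.5 ± 1.62, Gzma 12.5 ± 1.96, Ctsw 5.50 ± 1.41, Serpinb6b 3.81 ± 0.640, Prf1 0.904 ± 0.320 and Nkg7 0.358 ± 0.565 CPM per kb. Of neighbours in that order, Serpinb9 and Gzma, Ctsw and Serpinb6b, and Prf1 and Nkg7 overlapped between libraries. In DMSO libraries the order on the same scale was Srgn at 362 ± 8.37, Gzmb at 96.3 ± 12.0, Gzma at 47.8 ± 11.6, Serpinb9 at 9.57 ± 1.10, Ctsw at 7.07 ± 1.75, Serpinb6b at 3.10 ± 0.652, Nkg7 at 1.01 ± 1.10 and Prf1 at 0.671 ± 0.543 CPM per kb. There Nkg7 and Prf1 were the only neighbours that overlapped. Thus Serpinb9 stood level with or above Gzma in the Yoda1 libraries and below it in the DMSO libraries. Among 13003 tested genes with a length, ranked from the highest level per kb, Srgn ranked 88 to 102 in Yoda1 and 117 to 125 in DMSO libraries. Gzmb ranked 2050 to 2806 in Yoda1 and 592 to 786 in DMSO libraries.

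The ratios of the granzyme transcripts to each other overlapped between groups. Gzmb over Gzma per kb was 1.94, 1.86 and 2.16 in Yoda1 4, 5 and 6, against 2.33, 1.77 and 2.08 in DMSO 1, 2 and 3. Gzmb over its inhibitor's transcript Serpinb9 was 1.21, 1.28 and 2.17 per kb in the same Yoda1 libraries, against 9.38, 11.3 and 9.55 in the DMSO libraries. Gzmb over Srgn, which scales the protease to the granule's storage proteoglycan, averaged 0.0578 ± 0.00775 with Yoda1 and 0.266 ± 0.0361 with DMSO. These ratios combine the changes given above and add no separate test.

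**Figure D3:**
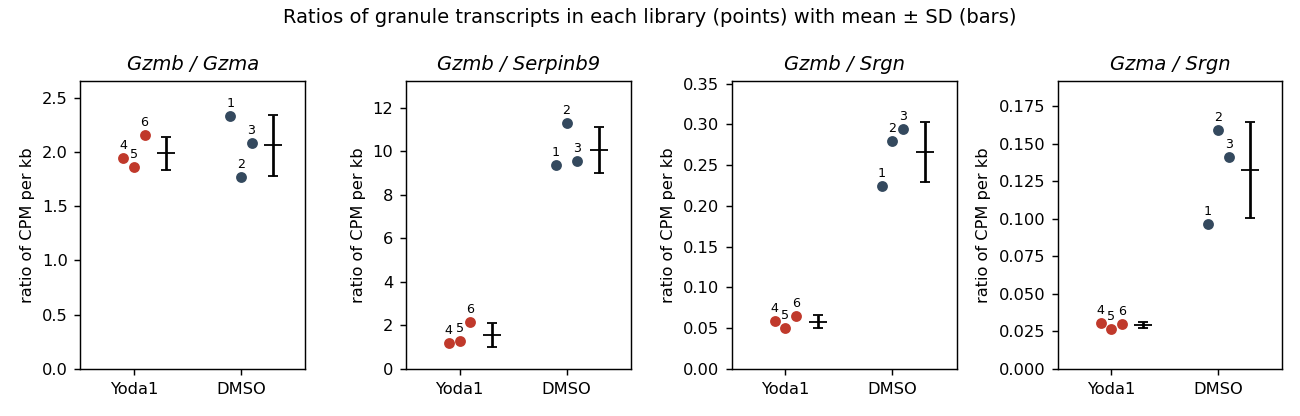
Ratios of CPM per kb between granule transcripts in each library (points, numbered as in the labels), with Yoda1 left of DMSO and bars for mean ± SD (n = 3 per group). Gzmb over Gzma overlaps between groups at 1.77 to 2.33, and the ratios to Serpinb9 and Srgn lie lower in every Yoda1 library.

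Other cells could carry these transcripts, and in bulk libraries fewer cells of a type and less RNA per cell cannot be told apart. Of 13 NK cell and ILC1 markers, 5 had a column, and their summed level was 5.31 to 6.80 CPM in Yoda1 and 7.29 to 12.2 CPM in DMSO libraries. The defining factor gene Tbx21 was at 0 in all Yoda1 libraries and in DMSO 1 and DMSO 3, and at 0.536 CPM in DMSO 2, while Eomes stayed at or below 0.835 CPM in every library. Itga2, the integrin CD49b of NK cells and some T cells, was at 4.78, 1.04 and 2.21 CPM in Yoda1 4, 5 and 6, against 6.35, 5.14 and 8.63 CPM in DMSO 1, 2 and 3. Its groups did not overlap, and it did not pass (log2 change -1.33, SE 0.575, edgeR quasi-likelihood adjusted p = 0.339). The T cell list, with 10 of 14 columns, summed to 353 to 505 CPM in Yoda1 and 350 to 408 CPM in DMSO libraries, mostly from the receptor constant segments Trbc1 and Trbc2, which ILC2s also transcribe. Within it Cd3e was at 0.346 to 1.31 CPM in Yoda1 and 1.92 to 2.69 CPM in DMSO libraries, Cd3d at 0.115 to 0.418 CPM in Yoda1 and 0.552 to 1.56 CPM in DMSO libraries, and Cd3g at 18.2 to 28.0 CPM in Yoda1 and 30.4 to 32.5 CPM in DMSO libraries. Trac was at 0 in Yoda1 4 and 5 and in DMSO 2 and 3. Itga2, Cd3e, Cd3d and Cd3g lay below DMSO in every Yoda1 library, as Gzma and Gzmb did. So did 12.0% of all tested genes. Cd3d, with 2 to 7 reads in the Yoda1 libraries, was too low to test. The other T cell, NK cell and ILC1 markers with a column overlapped between groups. Among these, Trbc1 and Trbc2 had positive log2 changes, 0.36 and 0.20. The part of T and NK cells in the granzyme difference was not tested. Histone genes, with 3 of 7 columns, were also compared, and their levels are not read here as a measure of RNA quality. H1f2 rose, at 67.6 to 80.9 CPM with Yoda1 and 31.6 to 37.8 CPM with DMSO (edgeR quasi-likelihood adjusted p = 0.0163). H1f0, at 107 to 131 CPM with Yoda1 and 162 to 180 CPM with DMSO, and H2az1, at 901 to 1448 CPM with Yoda1 and 1486 to 1585 CPM with DMSO, lay below DMSO without passing, and the part of RNA quality was not tested.

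Mast cells and basophils, which store proteases on serglycin, were also considered. Of 13 of their markers 9 had a column, and these summed to 135 to 139 CPM in Yoda1 and 86.5 to 97.0 CPM in DMSO libraries. Most of that sum in the Yoda1 libraries was the tryptase gene Tpsab1. It was at 92.9 to 97.3 CPM in Yoda1 and 23.2 to 49.9 CPM in DMSO libraries and rose (log2 change 1.41, edgeR quasi-likelihood adjusted p = 0.0383). Of the 7 tested genes of the list, 4 had positive and 3 negative log2 changes. Kit averaged 29.5 ± 4.22 CPM with Yoda1 and 40.4 ± 8.38 CPM with DMSO, with overlap (log2 change -0.46, SE 0.219). Mcpt8 lay below DMSO in every Yoda1 library, at means of 0.764 and 2.66 CPM, without passing. The part of mast cells and basophils in the member values was not tested. The mast cell protease genes Cpa3 and Cma1 stayed at or below 6.71 CPM in every library. Platelet markers, with 2 of 5 columns, summed to at most 1.85 CPM in Yoda1 and 2.97 CPM in DMSO libraries, and neutrophil markers, with 2 of 9 columns, to at most 0.968 CPM in Yoda1 and 1.91 CPM in DMSO libraries. The summed epithelial list, with 10 of 11 columns, was 55.2 to 77.7 CPM in Yoda1 and 91.0 to 427 CPM in DMSO libraries, of which Epcam made up 48.8 to 71.6 CPM in Yoda1 and 64.5 to 67.4 CPM in DMSO libraries. DMSO 1 held Sftpc at 15.2 CPM and Sftpa1 at 3.75 CPM, so leaving out DMSO 2 and DMSO 3 did not remove all epithelial transcripts. The part of epithelial cells in the member values was not tested. Without DMSO 2 and DMSO 3, the libraries with Scgb1a1, the log2 change was -1.5 (SE 0.348) for Gzma. It was -1.73 (SE 0.296) for Gzmb and 0.90 (SE 0.295) for Serpinb9. None of these passed with 1 DMSO library left, a fit that assumes that library varies as the Yoda1 libraries do.

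Partners of the granule pathway were taken from 9 lists of 111 genes, of which 79 had a column and 73 were tested. The lists were drawn up with the earlier results known. Of the 73, 1 rose, 3 fell and 69 did not pass in edgeR, where 1.49% of all tested genes were called in either direction. DESeq2 called 6 higher and 12 lower, and limma voom 2 and 6. Those tools called more genes in general, 6.50% of all tested in DESeq2 and 2.25% in voom. DESeq2 gave no adjusted p for 3360 of the 13325 genes, which count here as not called. At an unadjusted p under 0.05, the edgeR counts given below for single lists stand beside 14.5% of all tested genes, 7.39% higher and 7.11% lower. The median log2 change of the 73 was -0.0005, beside 0.01 over all tested genes.

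Among other intracellular serpins, 1 of 5 tested genes rose and none fell. At an unadjusted edgeR p under 0.05 there were 2 higher and 0 lower. Serpinb6a, a broadly expressed serpin that inhibits cathepsin G and other serine proteases, lies on chromosome 13 at 33917918 to 34002794. It was at 259, 231 and 239 CPM in Yoda1 4, 5 and 6, against 152, 158 and 156 CPM in DMSO 1, 2 and 3. The groups did not overlap, and the log2 change was 0.65 (SE 0.0982, edgeR quasi-likelihood adjusted p = 0.0190). The neutrophil elastase inhibitor gene Serpinb1a was at 247, 217 and 301 CPM with Yoda1, against 183, 187 and 185 CPM with DMSO (edgeR adjusted p = 0.134), and DESeq2 called it higher. Serpinb9b, a paralog of Serpinb9, was at or below 2.76 CPM in every library. The serpins share sequence, and reads could be split between paralogs by the counting. The only other granzyme with a column, Gzmm, was at 0.0597 to 1.73 CPM in Yoda1 and 0 to 0.566 CPM in DMSO libraries and was not tested.

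No gene of granzyme sorting and processing, of 11 tested, passed in edgeR. At an unadjusted p below 0.05 there were 1 higher and 2 lower; adjusted calls were 0 higher and 2 lower in DESeq2 and 0 and 1 in voom. Ctsc, which encodes the peptidase that activates pro-granzymes, was at 130, 103 and 110 CPM in Yoda1 4, 5 and 6, against 116, 174 and 148 CPM in DMSO 1, 2 and 3. Its inhibitor cystatin F, encoded by Cst7, was at 30.1, 35.5 and 29.7 CPM with Yoda1, against 48.7, 49.2 and 51.3 CPM with DMSO. The groups of Cst7 did not overlap (log2 change -0.65, SE 0.163, edgeR quasi-likelihood adjusted p = 0.102). Calr, the chaperone calreticulin that is also found in granules with perforin, averaged 585 ± 82.0 CPM with Yoda1 and 823 ± 50.7 CPM with DMSO (adjusted p = 0.0769). DESeq2 called both lower, and voom called Calr lower.

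Lysosomal membrane and cathepsin genes gave 0 calls among 8 in edgeR and in voom, and DESeq2 called Ctss lower. Unadjusted, edgeR put 0 higher and 1 lower below 0.05. Ctss, which encodes the cysteine protease cathepsin S, averaged 17.6 ± 3.40 CPM with Yoda1 and 29.8 ± 0.824 CPM with DMSO (edgeR quasi-likelihood adjusted p = 0.140). Lamp1, the membrane protein used as a marker of degranulation, averaged 372 ± 18.7 CPM with Yoda1 and 322 ± 30.8 CPM with DMSO (adjusted p = 0.387).

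The docking and fusion machinery was transcribed in both groups. None of 17 tested genes passed in edgeR, although 3 higher and 2 lower ones were below 0.05 unadjusted. Snap23 was called higher by DESeq2 and voom, and Stx11 lower by DESeq2, with no other calls. Rab27a, the small GTPase that tethers granules, was at 17.0, 14.8 and 23.5 CPM in Yoda1 4, 5 and 6, against 12.7, 22.5 and 35.4 CPM in DMSO 1, 2 and 3. Unc13d, which encodes the priming factor Munc13-4, was at 249, 201 and 168 CPM with Yoda1, against 164, 179 and 209 CPM with DMSO, and both genes overlapped between groups. Stx11, a syntaxin whose loss in humans impairs cytotoxicity, was at 71.3, 80.3 and 86.6 CPM with Yoda1, against 136, 107 and 138 CPM with DMSO. Its partner in membrane fusion Snap23 was at 78.8, 70.6 and 88.1 CPM with Yoda1, against 51.7, 45.2 and 51.8 CPM with DMSO. These were separated in opposite directions, at log2 changes of -0.68 (SE 0.146) and 0.68 (SE 0.150), without passing (edgeR quasi-likelihood adjusted p = 0.0672 and 0.0712).

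Among death ligands and killer cell cytokines, 1 of 7 tested genes fell. In edgeR 2 higher and 1 lower were below 0.05 unadjusted. Lta, which encodes the TNF family member lymphotoxin alpha, averaged 45.7 ± 9.11 CPM with Yoda1 and 123 ± 5.97 CPM with DMSO (log2 change -1.43, SE 0.165, edgeR quasi-likelihood adjusted p = 0.00720). Fasl, the ligand of the death receptor Fas, was at 0.129, 0 and 0 CPM in Yoda1 4, 5 and 6 and at 0, 1.04 and 0 CPM in DMSO 1, 2 and 3, too low to test. Tnfsf10, which encodes the death ligand TRAIL, was at 5.79 to 11.3 CPM with Yoda1 and 7.92 to 14.2 CPM with DMSO. Ltb, which encodes the lymphotoxin beta chain that pairs with lymphotoxin alpha at the cell surface, was at 178, 178 and 304 CPM with Yoda1, against 163, 120 and 124 CPM with DMSO. Tnfsf14, which encodes the TNF family ligand LIGHT, averaged 105 ± 13.0 CPM with Yoda1 and 77.1 ± 4.58 CPM with DMSO. Both lay above DMSO in every Yoda1 library without passing (edgeR quasi-likelihood adjusted p = 0.190 and 0.170), and DESeq2 called both higher. Lta was called lower by DESeq2 and voom.

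Of 13 tested transcription factor genes of cytotoxic cells, 1 fell and 12 did not pass, with a median log2 change of -0.32. Of the 13 changes 12 were negative, against 6523 of 13325 over all tested genes. With an unadjusted edgeR p under 0.05, 1 was higher and 6 were lower. Since the list was drawn up with results known, nothing is read from these counts. Irf4, a factor downstream of antigen and cytokine receptors, was at 18.6, 18.1 and 6.62 CPM in Yoda1 4, 5 and 6, against 58.0, 53.8 and 44.6 CPM in DMSO 1, 2 and 3. It fell by 1.85 on the log2 scale (SE 0.362, edgeR quasi-likelihood adjusted p = 0.0493). Prdm1, which encodes Blimp-1, a factor that drives effector differentiation, was at 12.8 to 33.6 CPM with Yoda1, against 47.1 to 70.3 CPM with DMSO, without overlap (adjusted p = 0.0868). Runx3, a factor required for the cytotoxic T cell programme, was at 39.9, 36.7 and 27.0 CPM with Yoda1, against 52.9, 43.1 and 51.4 CPM with DMSO (adjusted p = 0.288). In DESeq2 Stat4 was called higher and Batf, Id2, Irf4 and Prdm1 lower, and in voom Irf4 and Prdm1 lower.

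The IL-2 receptor and its signalling chain had 1 gene that fell among 8 tested. Of the 8 changes 5 were negative and 3 positive, with 0 higher and 4 lower at an unadjusted edgeR p under 0.05. Il2ra, the alpha chain that gives the receptor its high affinity, was at 776, 682 and 731 CPM in Yoda1 4, 5 and 6, against 1156, 1144 and 1182 CPM in DMSO 1, 2 and 3 (log2 change -0.67, SE 0.0763, edgeR quasi-likelihood adjusted p = 0.00707). Il2rb, the signalling beta chain, was at 316, 273 and 234 CPM with Yoda1, against 386, 421 and 438 CPM with DMSO (adjusted p = 0.0599). Jak3, the kinase bound to the common gamma chain, was at 278, 276 and 209 CPM with Yoda1, against 384, 341 and 377 CPM with DMSO (adjusted p = 0.0881). Il2rg, the gene of the common gamma chain, went the other way. It was at 1345, 1360 and 1291 CPM with Yoda1, against 1126, 1268 and 1262 CPM with DMSO. The groups of Il2rg did not overlap (log2 change 0.13, edgeR quasi-likelihood adjusted p = 0.475). Stat3 lay below DMSO in every Yoda1 library without passing, and Jak1 overlapped. The factor genes Stat5a and Stat5b overlapped between groups, at 18.4 to 32.9 CPM with Yoda1 and 23.8 to 26.9 CPM with DMSO for Stat5a. In DESeq2 Il2ra, Il2rb and Jak3 were called lower, and in voom Il2ra and Il2rb.

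Of 20 killer cell receptor and adaptor genes 5 had a column, and none of the 4 tested passed in edgeR or voom. DESeq2 called none either, but gave no adjusted p for Tyrobp and Fcer1g. Unadjusted, edgeR put 1 higher and 0 lower below 0.05. Tyrobp, the adaptor DAP12, averaged 1.86 ± 0.330 CPM with Yoda1 and 0.535 ± 0.340 CPM with DMSO, without overlap (edgeR quasi-likelihood adjusted p = 0.296). Fcer1g, the Fc receptor gamma chain, averaged 4.46 ± 0.726 CPM with Yoda1 and 2.34 ± 0.399 CPM with DMSO (adjusted p = 0.374). Both adaptors are abundant in myeloid cells, whose markers, with 7 of 12 columns, summed to 84.8 to 94.8 CPM in Yoda1 and 70.5 to 78.7 CPM in DMSO libraries, and their part was not tested. Most of the summed myeloid level was Xcr1, which overlapped, at 60.6 to 70.9 CPM with Yoda1 and 55.3 to 67.8 CPM with DMSO. The myeloid lysozyme gene Lyz2 was at 6.32 to 11.2 CPM with Yoda1 and 1.29 to 4.91 CPM with DMSO, without overlap. DESeq2 called Lyz2 higher, and edgeR did not (log2 change 1.79, edgeR quasi-likelihood adjusted p = 0.172). Adgre1 went the other way, at 0 in all Yoda1 libraries and 0.0552 to 1.67 CPM with DMSO. Cd68, Itgax, Csf1r and Fcgr1 overlapped between groups.

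The partner calls depended on single libraries, as calls over all tested genes did. There edgeR called 9 higher and 25 lower without DMSO 1, and 9 and 13 without DMSO 2. It called 4 and 5 without DMSO 3, and 7 and 27 without Yoda1 5. Without Yoda1 4 it called 47 and 100, and without Yoda1 6 it called 74 and 146, against 76 and 123 with all libraries. The Il2ra call was lost without any 1 of the DMSO libraries, and the Serpinb6a and Lta calls without any 1 of these or without Yoda1 5. The Irf4 call held without Yoda1 6 and was lost without any other library, and also with library totals only (adjusted p = 0.0528) and with no filter on low counts (0.0661, edgeR quasi-likelihood test). With each library left out in turn, Il2ra passed in 3 of 6 fits, Serpinb6a and Lta in 2, and Irf4 in 1, with the highest adjusted p at 0.0711 for Il2ra, 0.143 for Serpinb6a, 0.0668 for Lta and 0.193 for Irf4 (edgeR quasi-likelihood test). Their log2 changes over those fits ran from -0.72 to -0.62, from 0.60 to 0.68, from -1.60 to -1.34 and from -2.08 to -1.51.

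**Figure D4:**
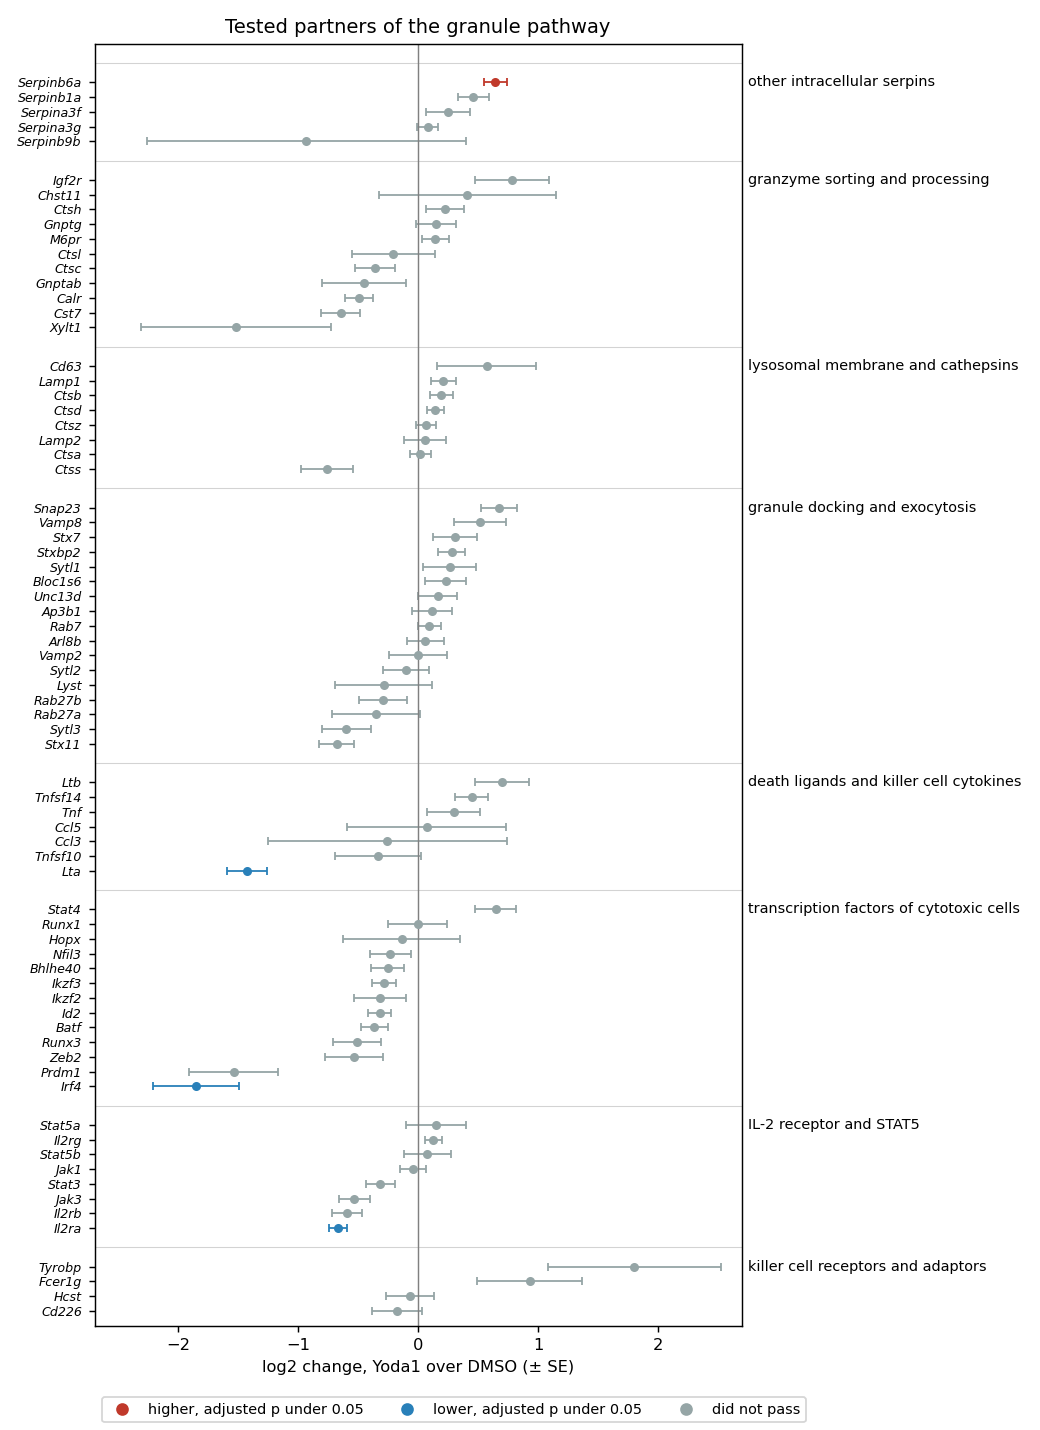
Log2 change of Yoda1 over DMSO (horizontal axis, ± SE) for the 73 tested partners by list, coloured by the call in edgeR. Serpinb6a is the only one called higher (0.65), and Irf4 (-1.85), Lta (-1.43) and Il2ra (-0.67) are called lower.

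Genes next to the members were also looked up, since granzyme and serpin genes lie in clusters. Within 250 kb of the starts of Gzma, Gzmb, Serpinb9, Prf1, Srgn, Nkg7 and Ctsw, 66 other genes had a column and 50 were tested. None passed in edgeR or voom, and DESeq2 called 2, both higher. Unadjusted, edgeR put 3 higher and 2 lower below 0.05, 5 of 50 genes against 14.5% of all tested. Gzmb lies in the mast cell protease cluster, where the basophil protease gene Mcpt8, 177.0 kb away, averaged 0.764 ± 0.743 CPM with Yoda1 and 2.66 ± 1.43 CPM with DMSO. Around Gzma, the RNA helicase gene Mtrex averaged 83.6 ± 24.0 CPM with Yoda1 and 87.0 ± 5.33 CPM with DMSO, a log2 change of -0.06 (SE 0.197).

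The genes whose profile over the 6 libraries was most like that of Gzmb, among 9010 tested genes with a mean of at least 5 CPM, were Pdia6, Cysltr1, Cenpa and Plk1, with Pearson's r of 0.9976, 0.9975, 0.9963 and 0.9959 on log2 CPM. They encode a protein disulfide isomerase, a leukotriene receptor, a centromeric histone and a mitotic kinase. Cysltr1 averaged 244 ± 20.6 CPM with Yoda1 and 358 ± 16.6 CPM with DMSO. Those most like Gzma were Eno1b (0.9985), Dck (0.996), Il1r2 (0.9891) and Cldnd1 (0.9871), of which Dck encodes deoxycytidine kinase and Il1r2 a decoy receptor for IL-1. Il1r2 averaged 89.1 ± 3.70 CPM with Yoda1 and 132 ± 13.8 CPM with DMSO. The libraries fall into the treatment groups, so these r values mostly carry the difference between the groups and are given as a description.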

How the data were processed

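The values are expected counts, estimated reads per gene with fractional values, as deposited by the authors. The build was mm10, per the submitters' processing notes. For the aligner, the counting method, strand use and filters, the sources used here give nothing. The smallest gene total in the table was 10 reads. Gzmb, Prf1, Nkg7, Ctsw and Serpinb6b were whole within 0.001 in all 6 libraries. Counts were rounded for the tests. Without stated strand use, reads of a gene and its antisense partner cannot be told apart.

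Groups came from the sample labels. Genes were kept by filterByExpr (minimum count 10, minimum total 15) and tested with edgeR 4.0.16 in R 4.3.3 (TMM, glmQLFit, glmQLFTest, no covariates), with Benjamini-Hochberg adjustment over 13325 genes. The common biological coefficient of variation was 0.355. A standard error is the log2 change divided by the square root of F. DESeq2 1.42.0 and limma 3.58.1 voom were alternatives, among 17 in all. Within groups, the lowest chi-square per degree of freedom of any library pair was 19.3, so no pair agreed within sampling noise.

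The members and lists were chosen with earlier results of these data known. The text names all members; from each partner list up to 4 genes past the threshold, or up to 2 with the smallest p where none passed; and 4 genes most like Gzmb and Gzma. Other genes, such as Ctsc, Rab27a, Prdm1, Runx3, Il2rb, Jak3, Ltb, Tnfsf14 and the markers, were added after their values were seen. Positions and exon lengths are from GENCODE M21 on GRCm38, in which 17086 symbols had a single position. Yoda1 libraries are numbered 4 to 6 and DMSO libraries 1 to 3, so the numbers pair none.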

Additional observations from a re-analysis of the deposited data

How the results depend on the processing

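No paired analysis was possible because the groups share no replicate number. Gzma and Gzmb were the 2 members called lower in edgeR. Both were called with DESeq2-style, upper-quartile or no scaling factors, in DESeq2, in voom, and with and without the stricter filter. They were also called in voom with shared label numbers as random effect (correlation -0.0618). That fit called 151 genes higher and 213 lower, against 121 and 179 in plain voom. With a negative correlation it was no stricter than plain voom, so it gives no guard against libraries of a shared number being technical copies. The count of members called lower was 0 with the label suffix as a term, with shared label numbers summed and without DMSO 2 and DMSO 3, and 0 to 2 with each library left out. In those 3 settings the fits called 3, 1 and 0 genes in all, so few genes of any kind passed; without DMSO 2 and DMSO 3, unadjusted p-values below 0.05 went to 452 higher and 416 lower genes. The log2 change over all 17 alternatives ran from -2.11 to -1.5 for Gzma and from -2.15 to -1.73 for Gzmb. The count of members called higher, 0 in edgeR, was 1 in DESeq2, in voom, in voom with the random effect and with the 10 CPM filter, and 0 with each library left out.

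Partners called lower numbered 6 with upper-quartile factors, 12 in DESeq2, 6 in voom, 6 in voom with the random effect and 8 with the 10 CPM filter, against 3 in edgeR and 2 with library totals only or no filter, where Irf4 was lost; they numbered 0 with the suffix term, with summed libraries and without DMSO 2 and DMSO 3, and 0 to 4 with each library left out. Partners called higher numbered 6 in DESeq2, 2 in voom, 2 with the random effect and 3 with the 10 CPM filter, against 1 in edgeR; they numbered 0 in the same 3 settings and 0 to 1 with each library left out. Upper-quartile factors moved the split of all calls to 57 higher and 174 lower, against 76 and 123 with TMM.

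The log2 change turned round for Ctsw (0.12) and Nkg7 (5.67) with the suffix term and for Prf1 (-0.05) without DMSO 1, with -0.05 to 1.22 over the fits that left out each library; none of these genes was called in any fit. The cause of these shifts was not tested. Nkg7 and Prf1 had the fewest reads of the members, at most 63 and 101 in a library.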
